A study of Mus musculus with 6 samples.

Results

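The genes of the general transcription factors that place Pol II at a promoter were read out in RNA-seq of *Armc5* KO and WT neural progenitor cells (NPCs). Members were chosen by symbol: the TBP-associated factor (TAF) genes of TFIID and their relatives, *Tbp* and *Tbpl1*, and the genes of TFIIA, TFIIB, TFIIE, TFIIF and TFIIH. This gave 39 genes of the 53060 genes or merged loci in the count table, and 37 of the 39 passed a filter on low counts. The 6 libraries were bulk RNA of neurospheres from the ganglionic eminences of e13.5 mouse fetuses, raised with epidermal growth factor (20 ng/ml) and taken at passage 2, with 3 libraries of *Armc5*-/- (KO) and 3 of WT cells. The mice were 129 sv X CD1 by the sample labels and CD1 x C57BL/6 F1 by the study's methods. Both genotypes were grown without any other treatment, and the study calls the cultures biological replicates without saying how many embryos gave one. ARMC5 is a substrate receptor of an E3 ubiquitin ligase for the Pol II subunit POLR2A, and the question put to the libraries was which mRNAs change when this ligase is lost.

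Before Pol II starts a transcript, TFIID recognizes the core promoter through TBP and its TAFs, TFIIA steadies TBP on the DNA, and TFIIB and TFIIF bring in the polymerase. TFIIE then recruits TFIIH, whose helicase subunits open the DNA and take part in nucleotide excision repair, and whose kinase module phosphorylates the tail of POLR2A. Several TAFs also serve in the coactivator SAGA, and some TAF and TFIIA genes have relatives that are known from germ cells.

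None of the 37 tested genes passed the test between KO and WT NPCs. At an adjusted p under 0.05 the quasi-likelihood (QL) test of edgeR called 0 of 37, with 0% of all 19073 tested genes called. *Armc5*, the deleted gene, was not called either (log2 fold change -4.68, SE 0.36, adjusted p = 0.0864, edgeR QL test). The absence of calls at this threshold therefore does not show that the members were unchanged. At an unadjusted p under 0.05 the QL test held 0 of 37, with 1.61% of all genes. The other tests called none of the 37 either, where the likelihood ratio test (LRT) of edgeR called 0.0891% of all genes, DESeq2 0.184%, and the LRT in which replicate numbers formed a block 0.199%. The block with the QL test put 2.05% of all genes and 0 of 37 members at an unadjusted p under 0.05. Log2 fold changes, KO against WT, ran from -0.60 (*Taf13*) to 0.27 (*Gtf2h5*), and the smallest unadjusted p of the edgeR QL test was 0.121 (*Taf13*). The 95% interval lay within -1 and 1 for 32 of the 37, which leaves a change of over 2-fold outside it. It was wider for *Gtf2a1* (-1.58 to 1.67), *Taf13* (-1.41 to 0.21), *Taf5* (-1.37 to 0.61), *Taf5l* (-1.16 to 0.62) and *Mnat1* (-1.05 to 0.36). In these 5 genes 1 or 2 libraries lay far from the rest. The intervals are from the fit without the replicate block, and that of *Gtf2a1* holds a spread between replicate numbers that both genotypes shared.

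**Figure D1:**
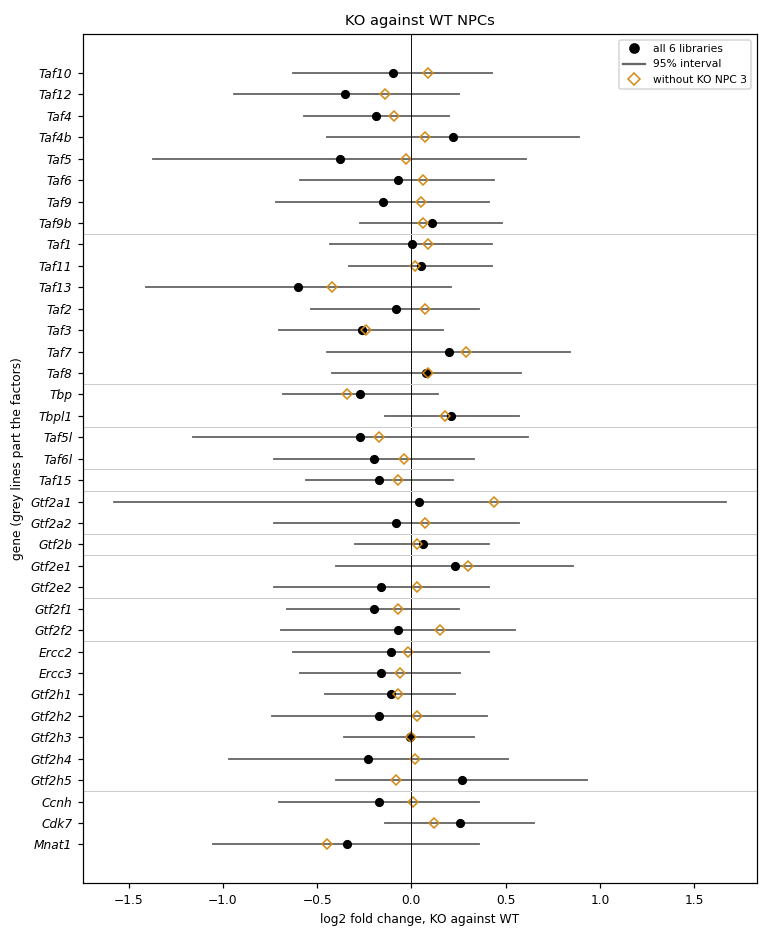
Log2 fold change (x axis, KO against WT, no unit) of each tested gene (y axis) with its 95% interval; open diamonds give the value without KO NPC 3. Every interval, from the fit without the replicate block, spans 0, and the widest is that of *Gtf2a1*, from -1.58 to 1.67.

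Of the 37 genes 25 had a log2 fold change below 0, where 51.6% of all genes did, and the median was -0.11 against -0.01 over all genes. This tilt came with a single library. Without KO NPC 3, 16 of 37 were below 0 (52.2% of all genes) and the median was 0.02. Leaving out any one of the other 5 libraries kept between 24 and 28 of 37 below 0. KO NPC 3 was the lowest of the 6 libraries for 20 of 37 members, where it was so for 36.8% of all genes. All genes were not matched to the members in level. KO NPC 3 was also the lowest for 12 of 12 Pol II subunit genes and 7 of 14 other SAGA subunit genes. Among tested partners and regulators of TBP it was so for 6 of 10, and among repair partners of TFIIH for 6 of 13. In the same order KO NPC 3 was the highest for 0, 1, 1 and 6 of them. Its median difference from the mean log2 CPM (CPM is the count as a share of the TMM-scaled library size) of the other 5 libraries was -0.36 over the members and -0.01 over all genes, and in each other library the members' median lay between 0.07 and 0.10. The low value was found in 6 of 8 TFIID core genes, both TFIIF genes and 4 of 7 TFIIH core genes, and in none of *Tbp*, *Tbpl1* and *Gtf2b*. KO NPC 3 was the highest library for 6 of 37 members, where it was so for 34.9% of all genes, and among the 6 were *Cdk7* and the locus of *Gtf2h5*.

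**Figure D2:**
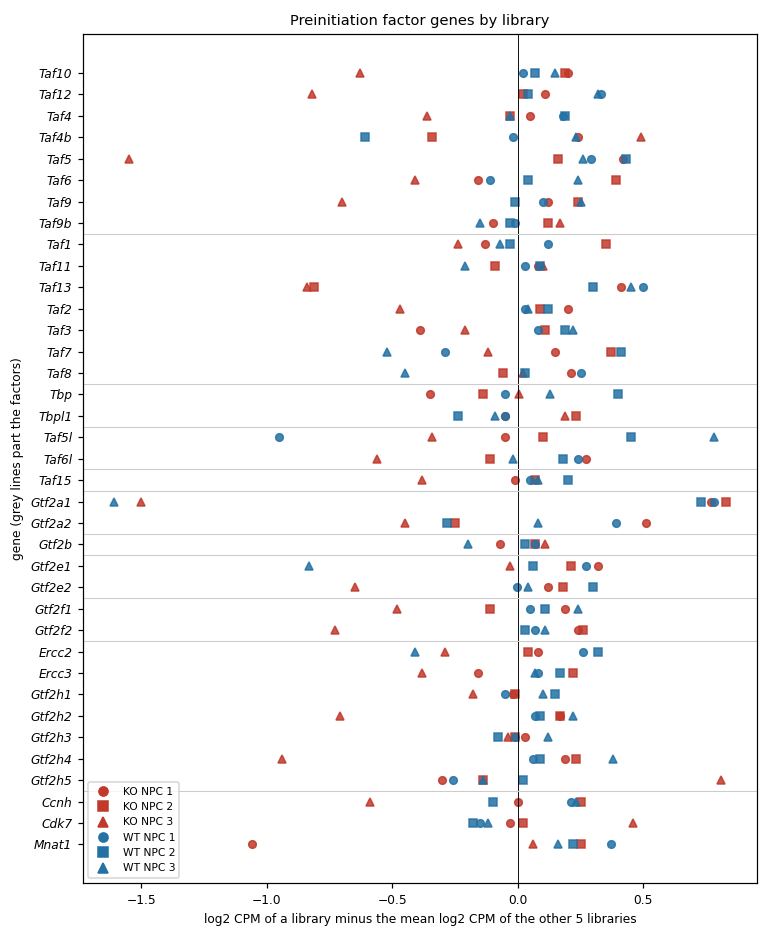
Log2 CPM of each library minus the mean of the other 5 (x axis, log2 units) for the 37 tested genes (y axis), KO in red and WT in blue, with the marker shape giving the replicate number. KO NPC 3 (red triangles) lies left of 0 for 27 of 37 genes, and the 2 triangles of *Gtf2a1* lie together far to the left.

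KO NPC 3 also stood apart in several cell type markers, some of which it shared with WT NPC 3. The progenitor genes *Sox2* and *Sox9* were high in all 6 libraries (535 to 811 and 341 to 570 CPM), while *Nes* was at 75.8 CPM in KO NPC 3 and at 356 to 483 CPM in the others. Progenitor markers summed to 2563 to 3823 CPM in KO and 3413 to 3734 CPM in WT NPCs, and KO NPC 3 was the lowest library for 4 of 10 and the highest for 3. Of 6 astrocyte markers KO NPC 3 was the highest for 4, with sums of 745 to 2020 CPM in KO and 689 to 1128 CPM in WT, of 8 tested oligodendrocyte lineage markers the highest for 4 and the lowest for 3 (2570 to 3548 and 2530 to 3217 CPM), and of 9 neuron markers the highest for 5 (802 to 1378 and 820 to 1473 CPM). Both libraries numbered 3 were high in *Dcx* (287 CPM in KO and 231 CPM in WT, 17.3 to 64 CPM elsewhere). *Tubb3* (62.1 and 53.7 CPM, elsewhere 7.81 to 27.1 CPM) and *Gad1* (66.3 and 39.2 CPM, elsewhere 4.89 to 6.58 CPM) behaved likewise. *Gad2*, *Syt1*, *Snap25* and *Rbfox3* were also higher in both than in any other library, while *Map2* and *Stmn2* were not. *Gfap*, an astrocyte filament gene, was at 276 CPM in KO NPC 3, 47.9 CPM in WT NPC 3 and 1.54 CPM or less elsewhere. Microglia and macrophage markers summed to at most 1.38 CPM in any library, with *Aif1* at 0 in 5 of 6. Endothelial markers reached 15.5 CPM and fibroblast markers 60.1 CPM in KO NPC 3, of which *Pdgfrb* made up 58.4 CPM, with other sums of 4.86 and 7.57 CPM at most. The part of these differences in the low members was not tested, and in bulk RNA fewer cells of a type and less RNA per cell cannot be told apart. Totals ran from 55722527 counts (KO NPC 3) to 86554006 (KO NPC 1), and *Armc5* itself had 84, 119 and 43 counts in KO NPC 1 to 3 against 1966, 2114 and 1797 in WT.

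Within the TFIID core, *Taf4* and *Taf12* encode a histone-fold pair, as do *Taf6* and *Taf9*, and *Taf5* and *Taf10* complete the scaffold. *Taf5* was at 23.6, 20.3 and 7.56 CPM in the KO libraries, by replicate number, and at 21.9, 23.7 and 21.5 CPM in the WT libraries, the order kept throughout. The single low value in KO NPC 3 carried its log2 fold change of -0.38 (SE 0.41), which was -0.03 without that library. *Taf12* was at 24.7, 23.4 and 14.4 CPM in KO and 28.0, 23.7 and 27.8 CPM in WT (log2 fold change -0.35, SE 0.24, and -0.14 without KO NPC 3). Its KO library was the lower one within each replicate number, by little in number 2. *Taf9*, which shares a locus and exons with the adenylate kinase gene *Ak6*, was at 74.7 CPM in KO NPC 3 and 111 to 129 CPM in the others. *Taf10*, a subunit of SAGA as well, was at 39.9 CPM in KO NPC 3 and 58.0 to 64.3 CPM in the others, and *Taf6* was at 40.4 CPM there and 46.7 to 64.3 CPM elsewhere. *Taf4* was at 34.1 CPM in KO NPC 3 against 41.4 to 47.1 CPM. The 2 core genes that were highest in KO NPC 3 were the relatives *Taf4b* (18.3 CPM, others 9.65 to 15.8) and *Taf9b* (23.6 CPM, others 19.6 to 22.9). None of the 8 core genes had KO and WT libraries apart.

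Outside the core, TFIID holds TAF1, the largest subunit, with its partner TAF7, TAF2 at the initiator, TAF3 and TAF8. TAF3 is a reader of methylated histone H3, and the histone-fold pair of TAF11 and TAF13 lies beside TBP. *Taf13* (GRCm38, chr3:108571698-108583222, plus strand) had the lowest log2 fold change of all members, -0.60 (SE 0.34). It was at 11.1, 5.48 and 5.37 CPM in KO and 11.6, 10.4 and 11.3 CPM in WT NPCs, so that KO NPC 2 and 3 were near 1/2 of the other 4 libraries and KO NPC 1 was among them. Without KO NPC 1 the value was -1.03 at an unadjusted p of 0.00593 (adjusted p = 0.839, edgeR QL test), in a setting where 4.78% of all genes were at an unadjusted p under 0.05. Its partner *Taf11* was level, with 23.0 to 25.6 CPM in KO and 21.5 to 25.4 CPM in WT (log2 fold change 0.05, SE 0.16). *Taf1* was at 94.7 to 133 CPM in KO and 104 to 116 CPM in WT, with a log2 fold change of 0.0026 (SE 0.18). *Taf3* was at 14.7, 19.8 and 16.3 CPM in KO and 19.3, 20.6 and 21.1 CPM in WT (-0.26, SE 0.18), which overlap through KO NPC 2. *Taf2* was at 82.8 CPM in KO NPC 3 and 111 to 122 CPM elsewhere. *Taf7* (9.48 to 16.3 CPM) and *Taf8* (15.2 to 22.9 CPM) were lowest in WT NPC 3. *Taf7l*, the germ cell relative of *Taf7*, had 6 counts in WT NPC 3 and none elsewhere and was not tested.

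The RefSeq promoter of *Taf13* (GRCm38.p6, chr3:108571449-108571748, plus strand) is shown because it was the only one of 33 member promoters with TATAAA lying 40 to 20 bases before the start, a feature of 1.87% of the 32851 promoters in the table. Capitals mark TATAAA, the GC box letters GGGCGG and the ETS core CGGAAG on either strand.

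Taf13: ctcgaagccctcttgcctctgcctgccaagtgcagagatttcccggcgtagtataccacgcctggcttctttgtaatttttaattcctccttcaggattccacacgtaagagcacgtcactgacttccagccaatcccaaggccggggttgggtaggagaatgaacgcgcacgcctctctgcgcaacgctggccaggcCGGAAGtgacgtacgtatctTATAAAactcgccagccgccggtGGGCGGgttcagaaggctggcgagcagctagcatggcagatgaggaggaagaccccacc

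TBP itself and its relative TBPL1, which pairs with TFIIA but does not read the TATA box, had fold changes of opposite sign, neither past the test. *Tbp* was at 31.6, 35.7 and 38.8 CPM in KO and 37.7, 48.6 and 41.7 CPM in WT NPCs (log2 fold change -0.27, SE 0.17, and -0.14 without WT NPC 2). Each KO library was below the WT library of its number, and KO NPC 3 was above WT NPC 1. *Tbpl1* was at 37.3, 43.8 and 42.8 CPM in KO and 37.2, 33.4 and 36.4 CPM in WT (0.21, SE 0.15). All 3 KO libraries were above all 3 WT libraries, though KO NPC 1 and WT NPC 1 were nearly level, and on the *Rn7sk* scale the value was -0.06. Among the members, KO and WT libraries were apart in this way for *Tbpl1* and *Cdk7* only, 2 of 37, against 2.74% of all genes, and for none with KO lower, against 3.28%. Read within replicate numbers, 4 members were higher in KO in every number (*Cdk7*, *Gtf2e1*, *Taf4b* and *Tbpl1*), against 10.9% of all genes, and 6 lower (*Taf12*, *Taf13*, *Taf15*, *Taf3*, *Taf4* and *Tbp*), against 11.6%.

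Counts of a gene and its relative in one library do not depend on how libraries are scaled. *Tbpl1* took 54.2%, 55.1% and 52.5% of the joint *Tbp* and *Tbpl1* counts in the KO libraries, in the order of their numbers, against 49.7%, 40.7% and 46.6% in the WT libraries. The groups did not overlap, and the means were 53.9% ± 1.34 (SD, n = 3) and 45.7% ± 4.58 (SD, n = 3). The difference of 8.25 percentage points had p = 0.1 in a two-sided exact permutation test, the smallest that 3 libraries against 3 can give, and 0.7 after adjustment over the 7 pairs compared. It ranged from 5.77 to 10.3 points as each library was left out in turn. With the libraries paired by replicate number, the KO share was the higher one in each number. An exact sign-flip test of the same difference gave p = 0.25, the smallest that 3 pairs can give. Exons of *Tbp* overlap those of *Pdcd2* on the opposite strand over 2582 bases, and no source used here says whether reads were counted by strand. The *Taf5l* share was the most spread, at 58.8%, 64.4% and 79% in KO and 47.8%, 65.4% and 71.7% in WT (p = 0.6, exact permutation test). *Taf4b* took 21.4% to 34.9% of its pair in KO and 17% to 27.5% in WT, *Taf9b* 14.5% to 24% and 13.2% to 15.9%, and *Taf6l* 24.3% to 35.4% and 27% to 34.3%, with exact permutation p between 0.5 and 0.8. Like that of *Tbpl1*, the *Taf4b* share was higher in KO within every number (p = 0.25, exact sign-flip test). The shares of *Taf5l*, *Taf9b* and *Taf6l* were not. With *Gtf2a1l* at 0.413% of its pair at most and *Taf7l* at 0.915%, the germ cell relatives gave next to no counts.

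**Figure D3:**
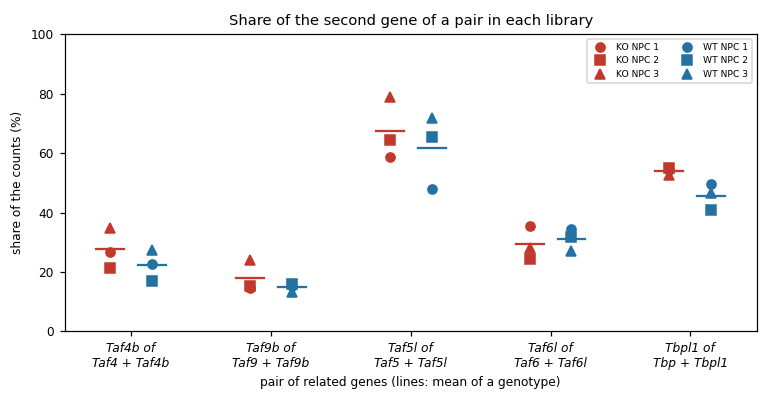
Share of the second gene in the summed counts of a gene pair (y axis, %) in each library, for 5 pairs (x axis), KO in red and WT in blue, with lines at the mean of each genotype. *Tbpl1* is the pair whose groups do not overlap, at 52.5% to 55.1% in KO and 40.7% to 49.7% in WT.

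The RefSeq promoters of this pair, *Tbp* (GRCm38.p6, chr17:15499638-15499937, plus strand) and *Tbpl1* (chr10:22731398-22731697, minus strand), are shown because it was the only pair whose KO and WT shares did not overlap. Both hold GGGCGG and CGGAAG, marked in capitals on either strand, with 1 match of CGGAAG in *Tbp* and 3 in *Tbpl1*, and neither holds TATAAA.

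Tbp: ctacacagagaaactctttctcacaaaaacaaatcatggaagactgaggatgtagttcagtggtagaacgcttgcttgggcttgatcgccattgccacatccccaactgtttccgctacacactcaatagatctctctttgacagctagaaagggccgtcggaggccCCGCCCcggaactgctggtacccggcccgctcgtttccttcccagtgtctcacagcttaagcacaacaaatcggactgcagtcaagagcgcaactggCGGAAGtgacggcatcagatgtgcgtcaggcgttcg

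Tbpl1: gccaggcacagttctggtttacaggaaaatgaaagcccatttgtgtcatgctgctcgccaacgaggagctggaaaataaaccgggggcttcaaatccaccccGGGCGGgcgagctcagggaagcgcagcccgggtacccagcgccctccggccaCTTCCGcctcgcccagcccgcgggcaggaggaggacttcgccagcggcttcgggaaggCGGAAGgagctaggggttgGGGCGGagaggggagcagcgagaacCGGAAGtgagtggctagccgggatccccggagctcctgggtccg

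TFIIA consists of the products of *Gtf2a1*, whose precursor is cut into its large subunits, and *Gtf2a2*, the small subunit. *Gtf2a1* (GRCm38, chr12:91555262-91590487, minus strand) varied more than any other member, and by replicate number more than by genotype. It was at 136, 141 and 36.8 CPM in KO and 137, 133 and 34.5 CPM in WT NPCs. Both libraries numbered 3 were thus near 1/4 of the other 4, and the genotypes lay close together within each number. Their log2 ratios were -0.01, 0.08 and 0.09 in the order of the numbers. The log2 fold change was 0.04 (SE 0.67) in the fit without the replicate block, whose SE holds the spread between numbers. Both libraries numbered 3 were under 1/2 of each other library for 33 genes, 0.173% of all tested, and *Gtf2a1* was the only member. On chromosome 12 it lies between *Tshr* and *Ston2*, and neither neighbour had this pattern: *Tshr* was at 6.36 CPM in KO NPC 3 and 1.01 CPM or less elsewhere, and *Ston2* at 118 CPM in KO NPC 3 and 32.9 to 44.9 CPM elsewhere. *Gtf2a2* was at 64.5, 41.6 and 37.0 CPM in KO and 60.1, 40.7 and 50.2 CPM in WT, with the libraries numbered 1 highest in both genotypes (log2 fold change -0.08, SE 0.27). The 2 genes of TFIIA thus varied by replicate number in different ways. *Gtf2a1l*, the germ cell relative of *Gtf2a1*, had 9 counts in KO NPC 3, none elsewhere, and was not tested.

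The RefSeq promoters of *Gtf2a1* (GRCm38.p6, chr12:91590438-91590737, minus strand) and *Gtf2a1l* (chr17:88668410-88668709, plus strand) are shown as the most variable member and its silent relative. Capitals mark CGGAAG in *Gtf2a1* and GGGCGG, on the opposite strand, in *Gtf2a1l*.

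Gtf2a1: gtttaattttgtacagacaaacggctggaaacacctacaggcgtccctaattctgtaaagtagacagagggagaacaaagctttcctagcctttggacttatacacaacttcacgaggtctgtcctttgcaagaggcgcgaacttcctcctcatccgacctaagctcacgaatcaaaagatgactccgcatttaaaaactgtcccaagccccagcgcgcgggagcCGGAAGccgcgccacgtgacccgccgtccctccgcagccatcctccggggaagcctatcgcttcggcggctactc

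Gtf2a1l: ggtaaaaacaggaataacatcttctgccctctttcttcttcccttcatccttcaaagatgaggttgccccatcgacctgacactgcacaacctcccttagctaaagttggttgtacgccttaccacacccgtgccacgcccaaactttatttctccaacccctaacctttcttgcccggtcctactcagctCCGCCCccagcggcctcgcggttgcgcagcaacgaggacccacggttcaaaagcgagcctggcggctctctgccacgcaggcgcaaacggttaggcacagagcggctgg

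Promoters were in the table for 33 of the 39 members. Their ratio of observed to expected CpG had a median of 0.89 over the 31 tested members, from 0.417 (*Gtf2h4*) to 1.22 (*Gtf2h3*), against 0.384 over all promoters, and was at least 0.6 in 30 of 31 (35.8% of all). The 2 genes with almost no counts were no different in this, with 1.03 for *Taf7l* and 0.801 for *Gtf2a1l*. CGGAAG, a core of ETS factor sites, lay in 17 of 33 member promoters on either strand, against 16.9% of all promoters and 33.4% of the 11765 with a CpG ratio of at least 0.6. GGGCGG, the letters of a GC box, lay in 23 of 33, against 35.7% and 72.3%. CCAAT lay in 9 of 33 (37.4% and 35.7%) and TATAAA anywhere in 5 of 33 (13.6% and 5.98%). These matches are letters in a window of 300 bases, 250 before and 50 after the start, and were not tested.

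*Taf5l* and *Taf6l* encode the SAGA counterparts of TAF5 and TAF6. *Taf5l* was at 33.7, 36.8 and 28.4 CPM in KO and 20.0, 44.9 and 54.4 CPM in WT NPCs. The WT libraries lay on both sides of the KO libraries, and the log2 fold change of -0.27 (SE 0.37) became -0.58 without WT NPC 1, at an unadjusted p of 0.0402 (edgeR QL test; 0.964% of all genes were under 0.05 in that setting), and 0.02 without WT NPC 3. *Taf6l* was at 15.9 CPM in KO NPC 3 and 20.6 to 25.6 CPM elsewhere. *Taf15*, an RNA-binding protein of the FET family that was first found with TFIID, was at 39.5, 41.4 and 31.9 CPM in KO and 40.9, 44.7 and 41.6 CPM in WT, with a log2 fold change of -0.17 (SE 0.16), and -0.07 without KO NPC 3.

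*Gtf2b*, whose product bridges TBP and the polymerase, was among the steadiest members, at 32.4, 35.1 and 35.9 CPM in KO and 35.0, 34.3 and 30.0 CPM in WT (log2 fold change 0.06, SE 0.15). Of the TFIIE subunit genes, *Gtf2e1* was at 69.6, 65.5 and 56.9 CPM in KO and 67.9, 60.1 and 36.0 CPM in WT. Its log2 fold change of 0.23 (SE 0.26) rested on the low WT NPC 3 and was -0.0037 without it. *Gtf2e2* was low in KO NPC 3 instead, at 12.1 CPM against 17.6 to 21 CPM. Both TFIIF genes had the same low library: *Gtf2f1* was at 26.1 CPM in KO NPC 3 and 32.4 to 39.7 CPM elsewhere, and *Gtf2f2* at 12.6 CPM and 19.6 to 22.4 CPM. TFIIF counts therefore summed to 60.7, 54.8 and 38.7 CPM in KO and 55.5, 56.2 and 60.2 CPM in WT.

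TFIIH joins a core, with the DNA translocase ERCC3 and the helicase ERCC2, to a kinase module of CDK7, cyclin H and MAT1. *Gtf2h3* was the steadiest member of all 37, at 26.5, 25.9 and 25.4 CPM in KO and 25.9, 24.9 and 27.8 CPM in WT, a ratio of 1.12 between the highest and the lowest library. *Gtf2h1* was at 30.8 to 34.0 CPM in KO and 33.1 to 37.2 CPM in WT. *Gtf2h4* was at 5.87 CPM in KO NPC 3 and 10.5 to 12.6 CPM in the others, and *Gtf2h2* at 16.8 CPM and 26.4 to 28.7 CPM. *Ercc3* was at 31.1 CPM in KO NPC 3 and 35.4 to 43.9 CPM elsewhere, and *Ercc2*, in a locus with *Mir343*, at 24.0 to 36.6 CPM with WT NPC 3 lowest. The locus that holds *Gtf2h5* and the longer *Tulp4* was at 253, 277 and 480 CPM in KO and 259, 304 and 276 CPM in WT. Which of its genes gave the high value in KO NPC 3 cannot be told apart, and its log2 fold change of 0.27 was -0.08 without that library.

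In the kinase module, *Cdk7* was at 72.8, 75.0 and 96.4 CPM in KO and 68.1, 66.6 and 69.2 CPM in WT. All KO libraries were above all WT libraries (log2 fold change 0.26, SE 0.16, adjusted p = 0.983, edgeR QL test), with 0.12 when KO NPC 3 was left out and -0.0029 on the *Rn7sk* scale. The counted locus of *Cdk7* spans 9618 exonic bases, against 3706 of the annotated gene. Which part of the locus gave the difference was not tested. *Ccnh* was at 42.0, 48.5 and 29.8 CPM in KO and 47.4, 39.7 and 48.1 CPM in WT (-0.17, SE 0.22). The locus of *Mnat1* and *Ppm1a* was at 67.0, 143 and 128 CPM in KO and 152, 140 and 136 CPM in WT (-0.34, SE 0.29, and -0.08 without KO NPC 1). Here KO NPC 1 was the low library, while *Cdk7* was highest and *Ccnh* lowest in KO NPC 3. *Cdk7* (GRCm38, chr13:100696975-100730939, minus strand) lies near 2 other members on the chromosome, *Gtf2h2* (chr13:100459576-100492579, minus strand) and the locus of *Taf9* (chr13:100650979-100666359, plus strand). In KO NPC 3 *Cdk7* had its highest value and both neighbours their lowest.

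**Figure D4:**
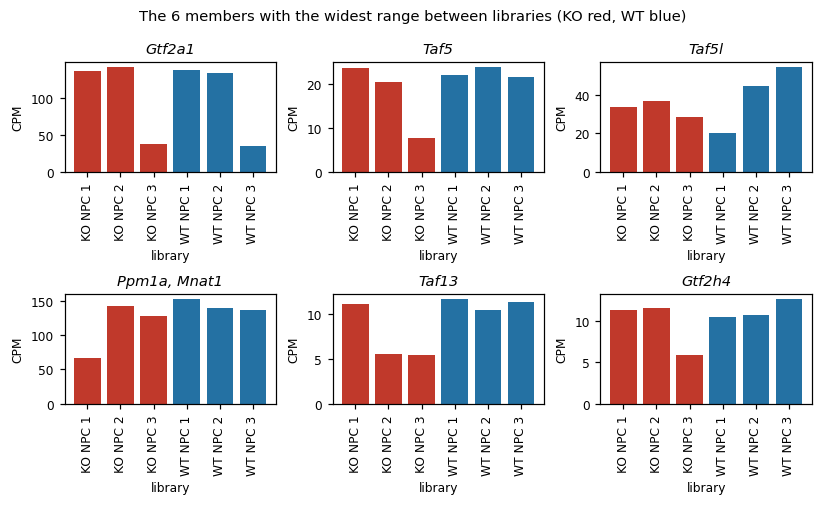
CPM (y axis, from 0) in each of the 6 libraries (x axis), KO in red and WT in blue, for the 6 loci with a ratio over 2 between the highest and the lowest library. *Gtf2a1* is low in both libraries numbered 3, *Taf5* and *Gtf2h4* in KO NPC 3, *Taf13* in KO NPC 2 and 3, *Taf5l* in WT NPC 1, and the locus of *Mnat1* in KO NPC 1.

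Over all 37 genes the ratio of the highest to the lowest library had a median of 1.61, against 1.74 over the 9875 tested genes with a mean of at least 10 CPM. It was over 2 for 6 of 37, against 38% of those genes. The largest were 4.08 (*Gtf2a1*), 3.13 (*Taf5*), 2.72 (*Taf5l*), 2.28 (*Mnat1* with *Ppm1a*), 2.16 (*Taf13*) and 2.14 (*Gtf2h4*). The median SE of the log2 fold change was 0.22 for the members and 0.24 for those genes.

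Levels can be set against each other only per length, and the 4 merged loci are left out of this. In CPM per kb of exonic length in the WT libraries, *Gtf2f1* had the highest mean (20.5 ± 1.19, SD, n = 3), followed by *Taf2* (16.4 ± 0.503), *Gtf2a1* (16.3 ± 9.33), *Ercc3* (14.5 ± 0.486) and *Ccnh* (14.5 ± 1.49). The SDs of the last 3 overlap, and the WT libraries of *Gtf2a1* ran from 5.53 to 22, so that its highest lay above those of *Gtf2f1* (19.5 to 21.8) and its rank is not fixed. *Taf4b* (2.52 ± 0.596), *Tbp* (2.53 ± 0.329) and *Taf3* (3.1 ± 0.134) were lowest of the 33, and the first pair cannot be ranked. The *Tbpl1* level per kb was 10.9 ± 0.622, but the locus of *Tbp* spans 16889 exonic bases, so its level per kb depends on the isoforms counted. With exonic lengths from GENCODE M21 *Tbp* was at 3.14 ± 0.409, and *Cdk7*, whose locus extends beyond the annotated gene, moved from 7.07 ± 0.136 (rank 19) to 18.3 ± 0.353 (rank 2).

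**Figure D5:**
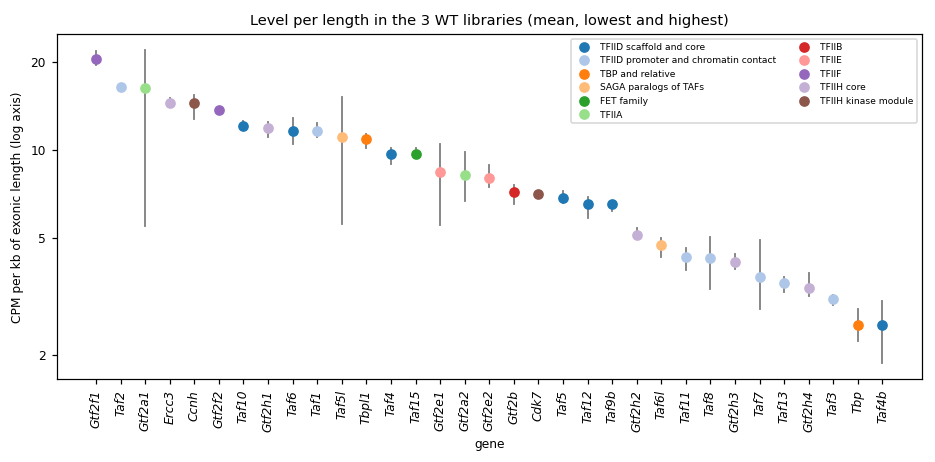
Level per length (y axis, CPM per kb of exonic length, log axis) of 33 tested genes (x axis) in the WT NPCs, with dots at the mean, lines from the lowest to the highest of 3 libraries, and colours for the factor. *Gtf2f1* has the highest mean at 20.5, and *Tbp* and *Taf4b* close the order at 2.53 and 2.52.

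Partners of these factors were read from the same fit. Of 12 Pol II subunit genes, 11 had a log2 fold change below 0 (median -0.14), against 51.6% of all genes. KO NPC 3 was the lowest library for 12 of 12, against 36.8% of all genes. How many of the subunit genes lay below 0 without that library was not read out. *Polr2a*, the catalytic subunit gene, was at 244, 275 and 215 CPM in KO and 361, 431 and 397 CPM in WT, which do not overlap. Its log2 fold change was -0.69 (SE 0.16, unadjusted p = 0.00495, adjusted p = 0.983, edgeR QL test). Leaving out KO NPC 3 gave -0.61. The highest subunit gene was *Polr2d* at 0.02 (SE 0.21), and at 0.20 without KO NPC 3. Of 14 other SAGA subunit genes 6 were above 0 and 8 below (median -0.03), from *Sgf29* at -0.18 (SE 0.25) to *Usp22* at 0.25 (SE 0.23). Of 10 tested TBP partners and regulators 4 were above and 6 below (median -0.03), from *Taf1d* in a merged locus at -0.52 (SE 0.38) to *Brf1* at 0.10 (SE 0.30). Leaving out KO NPC 3 gave -0.20 for *Taf1d* and turned *Brf1* to -0.32. Of 13 nucleotide excision repair partners of TFIIH 6 were above and 7 below (median -0.05), from *Ercc5* at -0.30 (SE 0.16) to *Ddb2* at 0.51 (SE 0.44). *Ddb2* was at 8.27 CPM in KO NPC 3 and 3.14 to 3.98 CPM elsewhere, and leaving out that library turned its value to -0.08. Over these 4 lists 0 genes were called by the QL test. *Polr2a* alone was at an unadjusted p under 0.05, where 1.61% of all genes were.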

How the data were processed

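RNA of 3 KO and 3 WT NPC cultures was depleted of rRNA, made into directional libraries and sequenced in paired-end mode. Per the labels and the study's methods, reads were processed by the authors on GRCm38 with STAR, StringTie, Trimmomatic, Picard and edgeR, with no versions given. The authors deposited whole-number counts per assembled locus, neither scaled nor filtered, and log2 values derived from them, which were not used (2 columns of genotype means on the *Rn7sk* scale were mapped to no sample). Loci with the same gene identifier were summed. Loci naming no gene (4.89% of counts in KO NPC 3 and 1.31% to 1.72% in the other libraries) were left out, and 4 members share a locus with another gene. Totals were 55722527 to 86554006 counts, and intervals and SEs of fold changes are from the fit without the replicate block.

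Genes passing filterByExpr of edgeR 4.0.16 (minimum count 10, minimum total 15) were TMM-scaled and fitted with the quasi-likelihood test in R 4.3.3 with limma 3.58.1, adjusted by Benjamini-Hochberg over 19073 genes, and checked on simulated data. SE is the log2 fold change over the root of F. Shares of gene pairs were set against each other in an exact permutation test (two-sided). An exact sign-flip test of the differences within replicate numbers was the paired alternative. Alternatives were the *Rn7sk* count as scale, totals only, no filter, DESeq2 1.42.0, the likelihood ratio test, the replicate block, merged loci left out, and each library, or both numbered 3, left out. The GENCODE M21 lengths and the count below 0 without each library were added after seeing the data. Every member was named, and of other lists the highest and lowest gene. The members and lists were chosen with earlier results of these data known.

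Replicate numbers paired the libraries: the study describes 3 pairs, and deviations from the genotype means correlated at 0.413, 0.169 and 0.195 for numbers 1, 2 and 3, and at 0.0579 or less for other pairs. P-values measure the spread between these cultures. Promoter sequences are RefSeq's on GRCm38.p6. Of 39 members 11 have exons overlapped on the opposite strand, by over 1000 bases for *Taf10*, *Tbp*, *Ercc2* and *Taf6*. The level of a further marker gene is not reported here.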

Additional observations from a re-analysis of the deposited data

How the results depend on the processing

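In none of the 16 alternatives was a preinitiation factor gene called at an adjusted p under 0.05. Over all genes, where the quasi-likelihood test called 0, 4 were called on the *Rn7sk* scale, 5 without a filter, 17 by edgeR's LRT, 8 by the LRT on the *Rn7sk* scale, 35 by DESeq2, 38 by the LRT with the replicate block, and 0 in the others. Of the 37 members 13 kept their sign in all 16 alternatives and 24 changed it in at least 1, with no value past the threshold on either side. With the replicate block and the quasi-likelihood test 0 genes were called, and only *Taf1* changed sign (-0.01 with either test), with no member called with the block in either test. The *Rn7sk* scale moved the median of all genes to -0.26, and by its construction gave *Taf8* -0.10, *Taf11* -0.16, *Gtf2b* -0.17, *Taf1* -0.26, *Taf9b* -0.14, *Taf4b* -0.08, *Cdk7* -0.0029 and *Tbpl1* -0.06, with the same values in the likelihood ratio test. *Gtf2h3* became 0.04 with totals only and 0.01 by DESeq2, and *Taf1* -0.03 without a filter. With both libraries numbered 3 left out the members' median was 0.02, and the values were *Gtf2h4* 0.10, *Ccnh* 0.05, *Gtf2h2* 0.07, *Taf8* -0.06, *Taf11* -0.06, *Gtf2b* -0.04, *Gtf2h3* 0.04, *Gtf2a2* 0.07, *Gtf2h5* -0.10, *Taf6* 0.13, *Taf2* 0.05, *Taf5l* 0.11, *Taf10* 0.12, *Gtf2f2* 0.16 and *Taf9* 0.10. As each library was left out in turn the members' median ran from -0.19 to 0.02, the *Taf5l* share difference from -1.15 to 10.8 points and that of *Taf6l* from -4.76 to 0.785 points, and log2 fold changes ran as follows: *Gtf2a1* -0.37 to 0.44, *Gtf2h3* -0.03 to 0.03, *Taf1* -0.13 to 0.09, *Gtf2a2* -0.36 to 0.08, *Gtf2h4* -0.37 to 0.02, *Ccnh* -0.30 to 0.01, *Gtf2h2* -0.28 to 0.03, *Gtf2e2* -0.25 to 0.03, *Gtf2h5* -0.08 to 0.44, *Taf6* -0.26 to 0.06, *Taf2* -0.19 to 0.07, *Taf10* -0.21 to 0.09, *Gtf2f2* -0.19 to 0.15, *Taf9* -0.27 to 0.05, *Ercc2* -0.28 to 0.03, *Gtf2e1* -0.0037 to 0.42, *Taf8* -0.07 to 0.22, *Taf11* -0.03 to 0.13, *Gtf2b* -0.01 to 0.11, *Taf5l* -0.58 to 0.02. The cause of these changes of sign was not tested. Of the members 36 of 37 had a mean of at least 10 CPM, and the part of depth was not tested.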
